A study of Mus musculus with 24 samples.

Results

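The zona pellucida and egg surface genes were taken as 8 genes named by symbol, Zp1, Zp2, Zp3, Astl, Plat, Folr4, Cd9 and Cd81, and all 8 were found among the 23235 genes of the deposited expression table. They were followed through 24 RNA-seq libraries of mouse oocytes and zygotes, 2 in each of 12 groups. The groups were Cnot6l-/-, a genotype labelled Btg4-/- and wild type (WT), each at the germinal vesicle stage (GV), metaphase of the first meiotic division (MI), metaphase of the second (MII) and as zygotes. All mice were C57BL/6 at postnatal day 21. GV oocytes were taken 48 h after PMSG, a hormone that stimulates follicle growth, MI and MII oocytes had been cultured for 8 h and 16 h, and zygotes were collected from mated females 24 h after hCG, which triggers ovulation. Zygotes therefore differ from MII eggs in route, in vivo against culture, as well as in stage. The alleles of both knockouts are not described in the labels. Cnot6l encodes one of the deadenylases of CCR4-NOT, the complex that removes poly(A) tails from mRNA. Btg4 encodes an adaptor that binds this complex. The comparisons ask how much of each maternal transcript is lost during maturation and after fertilization, and how that loss changes without CNOT6L or BTG4.

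The zona pellucida is the glycoprotein coat of the egg. In the mouse it is built from ZP1, ZP2 and ZP3, which the growing oocyte makes in large amounts and secretes. Astl encodes ovastacin, a metalloprotease that is stored in cortical granules, released at fertilization and cleaves ZP2, which stops further sperm from binding. Plat encodes tissue-type plasminogen activator, a serine protease whose mRNA is known in mouse oocytes for being stored with a short tail and translated when the tail is lengthened during maturation. Folr4 (Juno, now named Izumo1r) encodes the receptor on the egg membrane for the sperm protein IZUMO1. Cd9 and Cd81 encode tetraspanins of the egg membrane, and CD9 is needed for fusion with sperm.

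The 3′ ends of these mRNAs are shown first, since the poly(A) tail on which the CCR4-NOT complex acts is added there. Each line gives 30 bases of the transcript, 5′ to 3′, at or near its annotated 3′ end on mm9 (gencode vM1), with the polyadenylation signal AATAAA in capitals.
Zp1 (chr19:10988781-10988810, minus): ggactcAATAAAccattgtttgaaaactcc
Zp2 (chr7:127275875-127275904, minus): gattggacttgcaAATAAAgagactgcagt
Zp3 (chr5:136464465-136464494, plus): tatcccttccgcAATAAAagaagaaactca
Astl (chr2:127183358-127183387, plus): ggtagaAATAAAgttgggtgtttgcttcat
Plat (chr8:23893282-23893311, plus): ttaaatAATAAAttcagaggtatttttcac
Folr4 (chr9:14704467-14704496, minus): gtaccttcAATAAAaggctaggaaactcta
Cd9 (chr6:125410284-125410313, minus): tttgatacatAATAAAagattataacagtg
Cd81 (chr7:150253799-150253828, plus): tcatttAATAAAggaggaaaaaaatcaggc
All 8 transcripts held AATAAA within 40 bases of the end, a feature of 60.4% of the 17446 genes with an annotated 3′ UTR. The 3 zona genes stood apart in length. Their 3′ UTRs were 34 bases in Zp1, 28 in Zp2 and 13 in Zp3, against a median of 693 over all genes. UTRs as short or shorter were annotated for 1.96%, 1.47% and 0.441% of genes. In Zp3 the signal started 2 bases before the stop codon, so both overlap. The 3′ UTRs of the others had 877 bases in Astl, 741 in Plat, 333 in Folr4, 395 in Cd9 and 560 in Cd81.

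TTTTAT and TTTTAAT, the letters of cytoplasmic polyadenylation elements, were searched on the sense strand of each 3′ UTR. Plat held 3 of them, Cd9 and Cd81 held 1 each, and Zp1, Zp2, Zp3, Astl and Folr4 held none. Of the 17446 genes, 49.7% held at least 1. The short 3′ UTRs of the 3 zona genes leave few positions for such a string, so its absence there says little. The elements of Plat and Cd9 are printed because these members had the largest log2 differences from WT in Cnot6l-/- zygotes. In these zygotes Zp1, Zp2, Zp3 and Astl, which held none, were also higher, and Cd81, which held 1, did not pass. A link between elements and differences was not tested. Capitals mark the element.
Plat, 1st (chr8:23892980-23893009, plus): acaagaatgtgtTTTTATagttacacaggg
Plat, 2nd (chr8:23893180-23893209, plus): agaactgtatgaTTTTAATaattgatgaat
Plat, 3rd (chr8:23893216-23893245, plus): agtatatttataTTTTAATctattttagtt
Cd9 (chr6:125410540-125410569, minus): ttctgtttgtctTTTTAATgctttattcat
The elements started 328, 128 and 92 bases before the end of the Plat transcript and 274 bases before that of Cd9, and none overlapped AATAAA. A match is a string of letters and was not tested for function.

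Values are FPKM as deposited, by name fragments per kilobase of transcript scaled to the mapped fragments of a library. Levels can thus be compared between genes per length, but how libraries were scaled to each other is not given. Libraries were made with Smart-Seq2, which primes on poly(A) tails, so a transcript with a shorter tail could be captured less well; tail length was not measured. Differences were tested with limma on log2(FPKM + 1) over 10884 genes, and a gene passed at a Benjamini-Hochberg adjusted p under 0.05. All log2 changes below are on that scale, with the later stage or the knockout over its comparison group. The labels do not say that the 2 libraries of a group came from separate animals. The p-values reflect no more than how libraries of the same group vary, pooled over the 12 groups, and this variation may be technical. In bulk RNA fewer cells and less RNA per cell cannot be told apart. Summed FPKM averaged 482481 at GV, 301582 at MI, 190242 at MII and 108983 in zygotes of Cnot6l-/-. Where labelled Btg4-/- the sums were 483911, 377544, 167822 and 146144, and in WT they were 497690, 159243, 98985 and 62984. The values are thus no shares of a fixed total, and the median log2 change over all genes was -0.95 at WT MI and -1.37 at WT MII against GV. A second fit, after median-ratio scaling on the 3677 genes above 1 FPKM in every library, brought these medians to -0.16 and -0.37.

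The Cnot6l transcript was at 3.40 to 7.26 FPKM in the 8 Cnot6l-/- libraries, against 7.07 to 73.9 FPKM in the 8 WT libraries. It was lower at GV, MI and MII (adjusted p = 0.0073, 0.022 and 0.021) and did not pass in zygotes (log2 change -1.32, adjusted p = 0.27). The Btg4 transcript did not differ from WT beyond the spread in libraries labelled Btg4-/- at any stage (adjusted p from 0.12 to 0.81), so the level does not check that label, and the directions given for these libraries rest on it. Oocyte markers summed to 1484 to 12339 FPKM per library. The 12 cumulus and granulosa cell markers summed to 16.3 to 27.9 FPKM at GV and 1.48 to 15.8 FPKM later, led at WT GV by Cyp19a1 (10.6 FPKM), Inha (5.025 FPKM), Nr5a2 (2.73 FPKM) and Gja1 (2.46 FPKM), with Foxl2, Ptx3 and Has2 at or near 0 in WT. The 8 sperm markers summed to 3.52 to 61.2 FPKM and the 5 blood markers to 0.29 to 2.83 FPKM. Odf2 and Prm2 led the sperm sum, at GV with 17.3 and 22.6 FPKM in Cnot6l-/-, 34.6 and 23.7 FPKM where labelled Btg4-/- and 17.8 and 10.2 FPKM in WT. Tnp1 and Smcp of sperm and the globins Hbb-b1 and Hba-a1 were listed at 0 throughout. The labels disagree on the number of oocytes per library, 100 in one field and 2 in another. MI libraries are named column 2 and column 3 here, as their columns are numbered; their titles count 1 and 2.

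In WT GV oocytes the members ranged from among the most abundant transcripts of the table to nearly undetected. Zp3 averaged 2303 ± 204 FPKM (SD, n = 2) and ranked 16 of 23235 genes. Zp2 averaged 1096 ± 194 and ranked 53, and Zp1 averaged 420.4 ± 1.63 and ranked 233. The 3 structural genes of one coat thus differed in level, and their libraries did not overlap. Cd9 averaged 304 ± 53.9, Folr4 279.8 ± 67.0, Plat 264 ± 21.7 and Astl 153 ± 7.69 FPKM. Cd9, Folr4 and Plat had overlapping libraries, and Astl lay below all of them. Cd81 averaged 0.93 ± 0.41 FPKM. It entered the test only because it averaged above 1 FPKM at GV and MI in libraries labelled Btg4-/-, so in comparisons that use those groups its values are given as description, with no test, and counts there are of the other 7 members. Together the 8 genes made up 1.04% of summed FPKM at GV, 1.52% at MI, 1.18% at MII and 0.317% in zygotes of Cnot6l-/-. In libraries labelled Btg4-/- these shares were 1.04%, 1.14%, 0.842% and 0.281%, and in WT they were 0.977%, 1.66%, 0.438% and 0.106%.

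Zp3 (chr5:136455975-136464494, plus strand, mm9) encodes the zona protein that forms filaments with ZP2. In Cnot6l-/- Zp3 had 2084 and 2717 FPKM (GV), 1875 and 1880.0 FPKM (MI), 779 and 887 FPKM (MII) and 38.6 and 81.2 FPKM (zygotes). Under the Btg4-/- label it had 2403 and 2697 FPKM (GV), 1867 and 1885 FPKM (MI), 529 and 541 FPKM (MII) and 100.0 and 95.0 FPKM (zygotes). WT had 2159 and 2448 FPKM (GV), 1162 and 631 FPKM (MI), 129 and 68.2 FPKM (MII) and 13.3 and 17.8 FPKM (zygotes). The genotypes overlapped at GV, and from MI on both WT libraries lay below all 4 knockout libraries. By group means, Cnot6l-/- eggs at MII had 34.7% of their own GV level and eggs labelled Btg4-/- had 21.0%, against 4.28% in WT eggs. In zygotes all 3 genotypes were at or below 3.82% of GV.

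Zp2 (chr7:127275875-127288804, minus strand) encodes the protein that binds sperm and is cut after fertilization. The Cnot6l-/- libraries held Zp2 at 1066 and 1075 FPKM (GV), 978 and 933 FPKM (MI), 704 and 374 FPKM (MII) and 39.2 and 54.4 FPKM (zygotes). Those labelled Btg4-/- held it at 772 and 875 FPKM (GV), 794 and 820.0 FPKM (MI), 472 and 237 FPKM (MII) and 159 and 77.6 FPKM (zygotes), and those of WT at 1233 and 959 FPKM (GV), 773 and 464 FPKM (MI), 136 and 45.9 FPKM (MII) and 7.80 and 7.61 FPKM (zygotes). Zygotes labelled Btg4-/- lay above those of Cnot6l-/-, and both lay above WT. The 2 MII libraries of each genotype lay far apart, with replicate 1 the higher in all 3 genotypes.

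Zp1 (chr19:10988787-10995091, minus strand) encodes the protein that links zona filaments. Zp1 values were 372 and 485 FPKM (GV), 670.2 and 637 FPKM (MI), 291 and 205 FPKM (MII) and 18.4 and 26.4 FPKM (zygotes) in Cnot6l-/-. They were 517 and 378 FPKM (GV), 547 and 562 FPKM (MI), 135 and 92.2 FPKM (MII) and 31.8 and 22.6 FPKM (zygotes) in libraries labelled Btg4-/-. They were 422 and 419 FPKM (GV), 408 and 246 FPKM (MI), 57.3 and 39.2 FPKM (MII) and 3.73 and 9.26 FPKM (zygotes) in WT. Group means at MI were 153% of GV in Cnot6l-/-, 124% in libraries labelled Btg4-/- and 77.9% in WT. The Cnot6l-/- and WT libraries did not overlap at MI, MII or in zygotes. Over the 12 group means the 3 zona genes varied together, with Pearson r of 0.976 for Zp1 and Zp2, 0.984 for Zp1 and Zp3 and 0.985 for Zp2 and Zp3 on the log2 scale; the points share libraries and stages, and genes in general fell along the same stages.

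Astl (chr2:127164375-127183387, plus strand) is the gene of ovastacin. In Cnot6l-/- Astl had 112 and 181 FPKM (GV), 151 and 172 FPKM (MI), 85.0 and 70.7 FPKM (MII) and 12.8 and 22.2 FPKM (zygotes). Under the Btg4-/- label it had 185 and 135 FPKM (GV), 191 and 170.5 FPKM (MI), 54.1 and 49.5 FPKM (MII) and 10.4 and 14.4 FPKM (zygotes). WT had 147 and 158 FPKM (GV), 275 and 193 FPKM (MI), 58.9 and 54.0 FPKM (MII) and 2.54 and 4.61 FPKM (zygotes). Both WT MI libraries lay above both WT GV libraries. At MII the libraries labelled Btg4-/- overlapped with WT, and both Cnot6l-/- libraries lay above them. Zygotes had 11.96% of their GV level in Cnot6l-/- and 7.76% where labelled Btg4-/-, against 2.34% in WT.

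Plat (chr8:23868216-23893320, plus strand) encodes the plasminogen activator. The Cnot6l-/- libraries held Plat at 331 and 396 FPKM (GV), 586 and 579 FPKM (MI), 348 and 234 FPKM (MII) and 83.8 and 127 FPKM (zygotes). Those labelled Btg4-/- held it at 417 and 282 FPKM (GV), 466 and 454 FPKM (MI), 122 and 110.0 FPKM (MII) and 20.7 and 21.1 FPKM (zygotes), and those of WT at 279.7 and 248.96 FPKM (GV), 516 and 405 FPKM (MI), 132 and 98.1 FPKM (MII) and 5.08 and 17.9 FPKM (zygotes). In each genotype both MI libraries lay above both GV libraries. Cnot6l-/- zygotes had 29.0% of their GV level, zygotes labelled Btg4-/- had 5.98% and WT zygotes 4.34%. The Cnot6l-/- zygotes lay above all other zygotes.

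Folr4 (chr9:14704467-14708395, minus strand), the gene of the IZUMO1 receptor, fell early in WT. Folr4 values were 199 and 257 FPKM (GV), 148 and 139 FPKM (MI), 52.6 and 74.6 FPKM (MII) and 4.84 and 12.4 FPKM (zygotes) in Cnot6l-/-. They were 218 and 312 FPKM (GV), 208 and 226 FPKM (MI), 28.9 and 33.6 FPKM (MII) and 8.91 and 12.4 FPKM (zygotes) in libraries labelled Btg4-/-. They were 232 and 327 FPKM (GV), 66.1 and 50.4 FPKM (MI), 13.2 and 11.8 FPKM (MII) and 8.10 and 11.3 FPKM (zygotes) in WT. At MI and MII both knockouts lay above WT without overlap. In zygotes all 3 genotypes overlapped, at 3.77% of GV in Cnot6l-/-, 4.02% where labelled Btg4-/- and 3.46% in WT.

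Cd9 (chr6:125410284-125444773, minus strand), the fusion tetraspanin, was the member furthest from WT at MII in both knockouts. In Cnot6l-/- Cd9 had 363 and 434 FPKM (GV), 218 and 197 FPKM (MI), 217 and 174 FPKM (MII) and 71.0 and 103 FPKM (zygotes). Under the Btg4-/- label it had 269 and 452 FPKM (GV), 226 and 213 FPKM (MI), 248 and 159 FPKM (MII) and 154 and 83.2 FPKM (zygotes). WT had 342 and 266 FPKM (GV), 98.5 and 65.3 FPKM (MI), 9.81 and 2.49 FPKM (MII) and 10.2 and 4.36 FPKM (zygotes). Cnot6l-/- eggs at MII were at 49.1% and eggs labelled Btg4-/- at 56.4% of their own GV mean, against 2.02% in WT eggs. In both knockouts the MI and MII libraries overlapped. Ordered by mean over the 12 groups, the 3 GV groups came first, and the knockout groups at MI, MII and zygote came before WT MI. The zygote libraries of both knockouts overlapped with those of WT MI. WT zygotes and WT MII came last and overlapped.

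Cd81 (chr7:150238655-150253835, plus strand), the second tetraspanin, was scarce throughout. The Cnot6l-/- libraries held Cd81 at 0.75 and 0.63 FPKM (GV), 0.24 and 0.24 FPKM (MI), 0.17 and 0.40 FPKM (MII) and 0.18 and 0.05 FPKM (zygotes). Those labelled Btg4-/- held it at 2.51 and 0.80 FPKM (GV), 1.07 and 1.56 FPKM (MI), 0.67 and 0.20 FPKM (MII) and 0.11 and 0.18 FPKM (zygotes), and those of WT at 1.22 and 0.64 FPKM (GV), 0.30 and 0.19 FPKM (MI), 0.35 and 0.16 FPKM (MII) and 0.01 and 0.09 FPKM (zygotes). The highest value of all 24 libraries was 2.51 FPKM, in 1 GV library labelled Btg4-/-. At this level the pseudocount of 1 dominates the log2 scale. Across the 12 groups ordered by mean, libraries of neighbouring groups overlapped in 10 of 11 pairs for Cd81, 8 for Cd9, 7 for Folr4, 6 each for Astl, Plat and Zp2, 5 for Zp3 and 4 for Zp1.

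**Figure D1:**
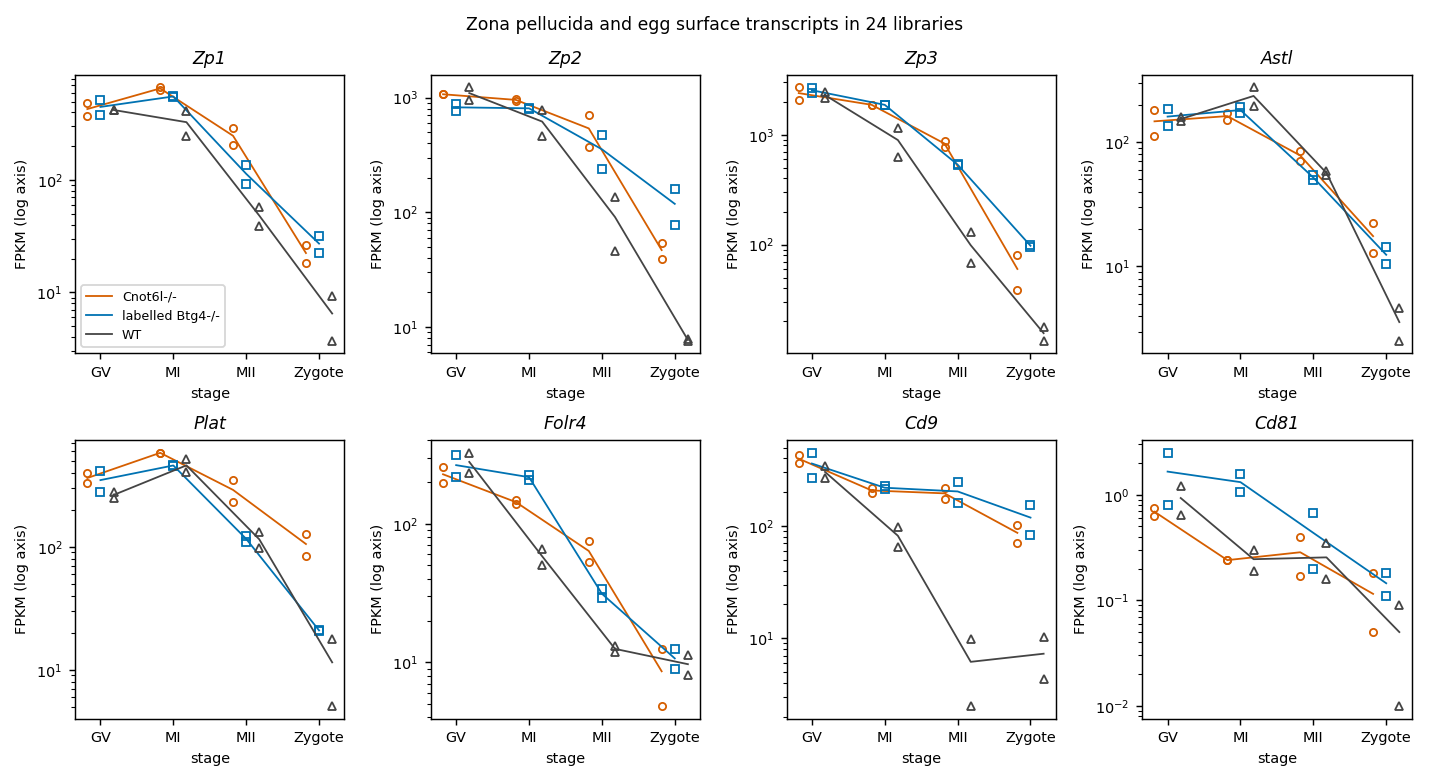
FPKM of the 8 genes on log axes by stage, with open symbols for single libraries (2 a group) and lines through group means, in Cnot6l-/- (orange circles), labelled Btg4-/- (blue squares) and WT (grey triangles). The Cd9 panel shows the knockouts at 158.79 to 247.80 FPKM at MII, against 2.49 and 9.81 FPKM in WT.

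Between GV and MI in WT oocytes the egg receptor and tetraspanin transcripts and Zp3 fell, and the other zona genes and the proteases did not pass. Folr4 fell to 20.8% of its GV mean (log2 change -2.24 ± 0.36 SE, adjusted p = 3.8e-05), Cd9 to 27.0% (-1.90 ± 0.48 SE, adjusted p = 0.0026) and Zp3 to 38.9% (-1.42 ± 0.37 SE, adjusted p = 0.0027). With Cd81 (-0.62 ± 0.24 SE, adjusted p = 0.032), 4 of the 8 fell, beside 65.1% of all genes tested. Zp1 (-0.40, adjusted p = 0.36) and Zp2 (-0.86, adjusted p = 0.12) did not pass. Plat (0.79, adjusted p = 0.095) and Astl (0.59, adjusted p = 0.12) were higher in both MI libraries without passing. The median of all genes was -0.95, so Astl and Plat lay 1.55 and 1.74 above it. After scaling these were the 2 members that passed, beside 15.2% of all genes higher, at 1.85 (adjusted p = 0.0012) and 2.05 (adjusted p = 0.0023), and no member passed as lower; Zp1 (0.86, adjusted p = 0.08) and Zp2 (0.40, adjusted p = 0.37) turned positive without passing. Without WT MI column 3 the call of Zp3 was lost (-0.98, adjusted p = 0.064). The call of Cd81 was lost without either MI library (-0.68 and -0.55, adjusted p = 0.062 and 0.14) or without WT GV replicate 1 (-0.40, adjusted p = 0.26), and with no filter on low values its adjusted p was 0.057.

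By MII all 8 transcripts had fallen in WT, beside 83.4% of all genes tested. The members spread widely around the median of all genes of -1.37. Cd9 fell most (-5.62 ± 0.48 SE, adjusted p = 1.4e-08), followed by Zp3 (-4.60 ± 0.37 SE, adjusted p = 5.3e-09), Folr4 (-4.36 ± 0.36 SE, adjusted p = 7.4e-09), Zp2 (-3.76, adjusted p = 1.6e-06) and Zp1 (-3.12, adjusted p = 1e-06). Of the 10884 genes tested, 232 had a lower change than Cd9. Astl (-1.42 ± 0.33 SE, adjusted p = 0.00084) and Plat (-1.21 ± 0.41 SE, adjusted p = 0.012) lay within 0.17 of the median of all genes, and Cd81 (-0.61, adjusted p = 0.027) fell by less than that median. After scaling 5 of 7 members passed, all lower, beside 43.2% of all genes (Cd9, Zp3, Folr4, Zp2 and Zp1, from -3.83 to -1.20), while Astl (0.49) and Plat (0.72) turned positive without passing. The call of Plat was lost without WT GV replicate 1 (-1.12, adjusted p = 0.063) or WT MII replicate 2 (-0.99, adjusted p = 0.083), and that of Cd81 without WT GV replicate 1 (-0.39, adjusted p = 0.23) or WT MII replicate 2 (-0.50, adjusted p = 0.14). Leaving out WT MII replicate 1 or 2 gave -6.44 or -4.81 for Cd9 and -4.54 or -2.99 for Zp2, all still past the threshold.

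From MII egg to zygote in WT, the proteases and the zona genes fell further while the receptor and tetraspanins did not pass. Of the 8, 5 fell, beside 3.22% of all genes tested. On the log2 scale Astl (-3.69 ± 0.33 SE, adjusted p = 1.2e-05) and Plat (-3.42 ± 0.41 SE, adjusted p = 0.00014) had the lowest changes. Zp2 (-3.20, adjusted p = 0.00098), Zp1 (-2.80, adjusted p = 0.00046) and Zp3 (-2.53, adjusted p = 0.00081) fell as well. Cd9 (0.33, adjusted p = 0.89), Folr4 (-0.35, adjusted p = 0.77) and Cd81 (-0.25, adjusted p = 0.73) were already at 13.2 FPKM or less in each WT MII library. The stage at which FPKM fell thus differed between members. Zygotes and MII eggs held 3.46% and 4.46% of the GV level of Folr4, and 2.39% and 2.02% of that of Cd9. For Astl they held 2.34% and 36.9%, and for Plat 4.34% and 43.6%. The same 5 passed after scaling, beside 4.86% of all genes lower. In a fit of only the 4 WT libraries compared, with 2 residual degrees of freedom, none passed (adjusted p = 0.30 for each of these 5). Shares of all genes are not given for fits of only the compared libraries, so their counts do not set the members apart from other genes. Zp2 was at -2.43 or -3.975 without WT MII replicate 1 or 2, and Plat at -2.60 or -4.24 without WT Zygote replicate 1 or 2, still passing.

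**Figure D2:**
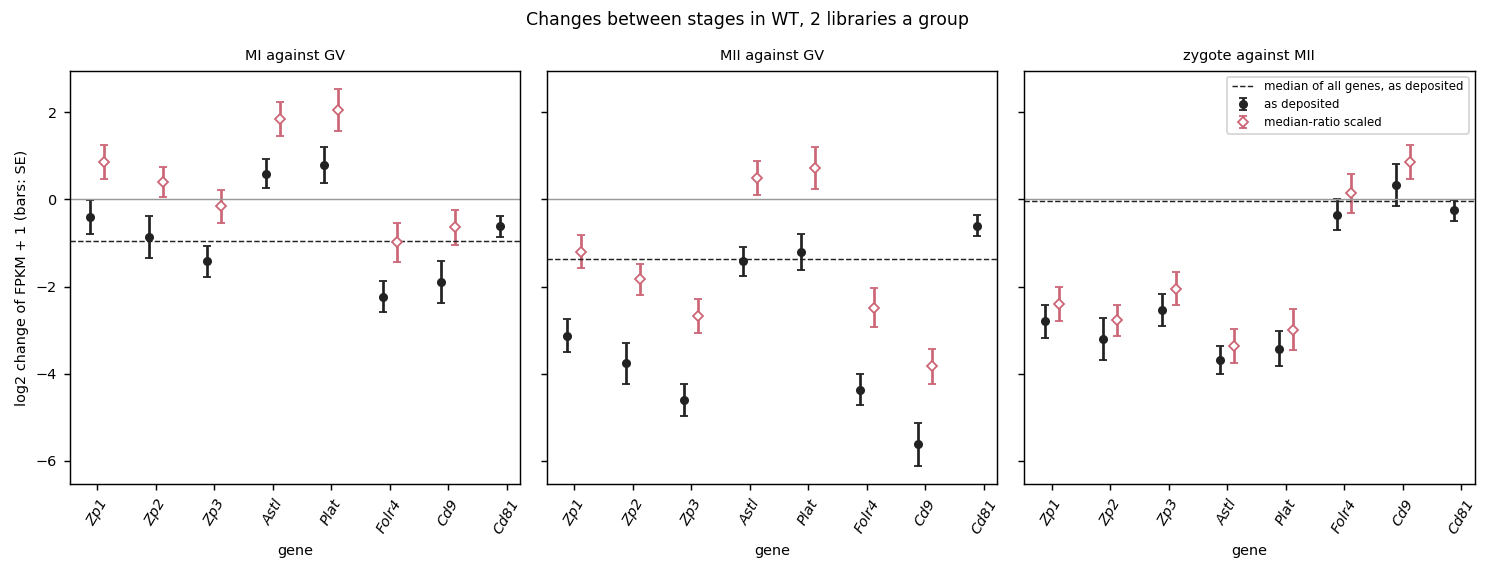
Log2 changes of FPKM + 1 in WT between stages for the 8 genes (points with SE bars), as deposited (filled circles) and after median-ratio scaling (open diamonds; Cd81 was not tested there). The dashed line is the median of all genes as deposited. Astl and Plat lie above it at MI, and Cd9, Folr4 and Cd81 lie near 0 from MII to zygote.

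In the knockouts the first step, between GV and MI, passed for no member. In Cnot6l-/- oocytes 0 of the 8 passed between GV and MI in limma, also at an unadjusted p under 0.05, beside 15.0% of all genes lower. In oocytes labelled Btg4-/- 0 of the 7 members other than Cd81 passed in limma, likewise at an unadjusted p under 0.05, beside 1.26%. In a fit of only the 4 Cnot6l-/- libraries compared, Cd9 (adjusted p = 0.024) and Cd81 (adjusted p = 0.024) were lower and Plat (adjusted p = 0.039) higher. The share of all genes in that fit is not given. By MII, 3 of 8 had fallen in Cnot6l-/- eggs, beside 59.9% of all genes. These were Folr4 (-1.83 ± 0.36 SE, adjusted p = 0.00032), Zp3 (-1.52 ± 0.37 SE, adjusted p = 0.002) and Astl (-0.87 ± 0.33 SE, adjusted p = 0.032). The call of Astl was lost without Cnot6l GV replicate 2 (-0.52, adjusted p = 0.28) or Cnot6l MII replicate 2 (-0.74, adjusted p = 0.16), and after scaling no member passed, beside 23.4% of all genes lower. In eggs labelled Btg4-/- 6 of the 7 members other than Cd81 had fallen by MII, beside 75.3% of all genes, from Folr4 (-3.03) to Zp2 (-1.29), and Cd9 did not pass (-0.81, adjusted p = 0.13). Of these 6, only Folr4 passed after scaling (-1.79, adjusted p = 0.005), beside 29.7% of all genes lower. The call of Zp2 was lost without either GV library labelled Btg4-/- or MII replicate 2 (-1.38, -1.21 and -0.80, adjusted p = 0.055, 0.092 and 0.24).

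From MII to zygote 6 of 8 fell in Cnot6l-/-, beside 28.7% of all genes. The zona genes fell most, Zp3 (-3.87 ± 0.37 SE, adjusted p = 1.9e-06), Zp2 (-3.44) and Zp1 (-3.41), followed by Folr4 (-2.85), Astl (-2.13) and Plat (-1.46 ± 0.41 SE, adjusted p = 0.012). Cd9 did not pass (-1.18, adjusted p = 0.08). Folr4 was at -2.25 or -3.45 without Cnot6l Zygote replicate 1 or 2, still passing. Without Cnot6l MII replicate 1 or Cnot6l Zygote replicate 1 the call of Plat was lost (-1.17 and -1.16, adjusted p = 0.13 and 0.14), as it was after scaling (-0.76, adjusted p = 0.31), where 18.1% of all genes were lower. Where labelled Btg4-/-, 4 of 8 fell, beside 1.07% of all genes: Zp3 (-2.44 ± 0.37 SE, adjusted p = 0.0023), Plat (-2.42, adjusted p = 0.0043), Zp1 (-2.02, adjusted p = 0.013) and Astl (-1.99, adjusted p = 0.0042). Without Btg4 MII replicate 1 only Zp3 passed, with Plat at -2.34 (adjusted p = 0.082), Astl at -1.93 (adjusted p = 0.08) and Zp1 at -1.74 (adjusted p = 0.26). Astl also lost its call without Btg4 Zygote replicate 1 (-1.78, adjusted p = 0.055) and Zp1 without Btg4 Zygote replicate 2 (-1.78, adjusted p = 0.14). In a fit of only the 4 libraries labelled Btg4-/- none passed (adjusted p = 0.64 to 0.66 for these 4), with the share of all genes not given.

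**Figure D3:**
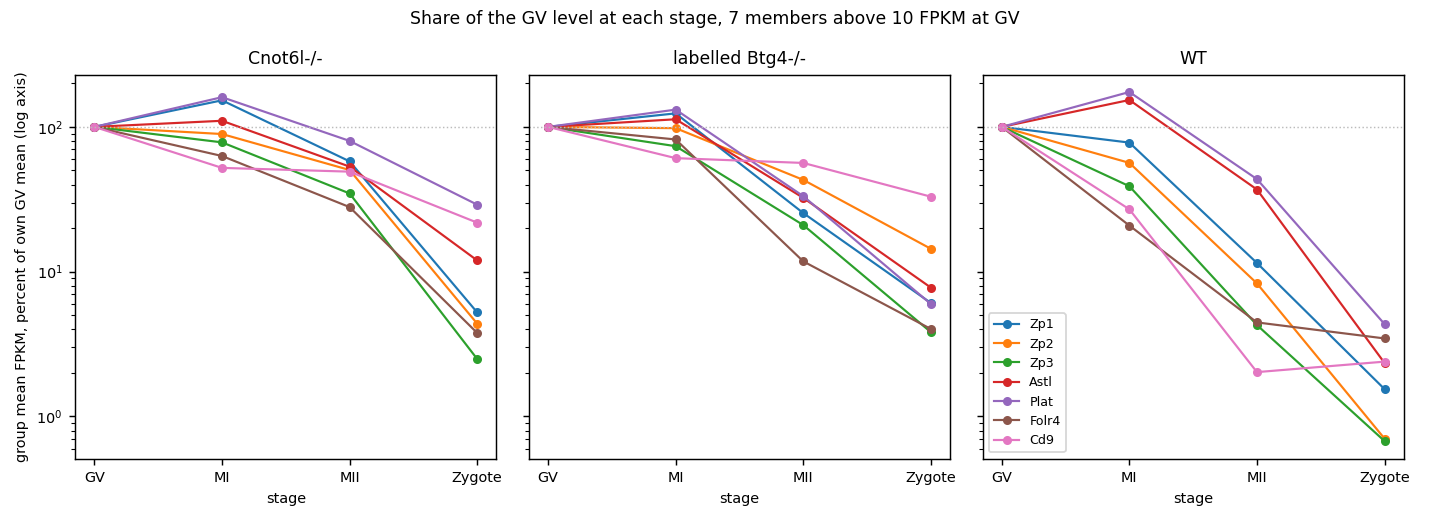
Group mean FPKM at each stage as a percentage of the same genotype's GV mean (log axis; dotted line at 100%), for the 7 genes above 10 FPKM at GV, in Cnot6l-/-, labelled Btg4-/- and WT. At MII Cd9 stands at 49.1% in Cnot6l-/- and 56.4% where labelled Btg4-/-, against 2.02% in WT.

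Before maturation no member passed between knockout and WT. At GV 0 of 8 passed in Cnot6l-/- against WT in limma, also at an unadjusted p under 0.05, beside 6.06% of all genes higher, and log2 differences lay between -0.29 (Folr4) and 0.45 (Plat). Where labelled Btg4-/- 0 of the 7 members other than Cd81 passed in limma, likewise at an unadjusted p under 0.05, beside 6.10%, with differences from -0.40 (Zp2) to 0.38 (Plat). Cd81 overlapped with WT. Both knockouts were set against the same WT libraries here and at each later stage.

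At MI, 4 of 8 were higher in Cnot6l-/- than in WT, beside 60.3% of all genes: Cd9 (1.36 ± 0.48 SE, adjusted p = 0.022), Folr4 (1.30 ± 0.36 SE, adjusted p = 0.0045), Zp3 (1.13 ± 0.37 SE, adjusted p = 0.013) and Zp1 (1.04 ± 0.38 SE, adjusted p = 0.025). The median of all genes was 0.87, and these 4 lay 0.17 to 0.48 above it. In libraries labelled Btg4-/- 3 of the 7 members other than Cd81 were higher, beside 68.7% of all genes: Folr4 (1.89 ± 0.36 SE, adjusted p = 0.00018), Cd9 (1.44 ± 0.48 SE, adjusted p = 0.015) and Zp3 (1.13 ± 0.37 SE, adjusted p = 0.012); the median was 0.99. Neither count is above the share of all genes. Cd81 had 1.07 and 1.56 FPKM where labelled Btg4-/-, against 0.30 and 0.19 FPKM in WT. After scaling Cd9, Folr4, Zp3 and Zp1 passed in neither comparison, Zp3 turned to -0.09 where labelled Btg4-/-, and the single member that passed in each was Astl, lower, at -1.46 in Cnot6l-/- (beside 1082 of 9823 genes lower) and -1.57 where labelled Btg4-/- (beside 965 of 9823). Cd81 was not tested after scaling. The 2 libraries of each MI knockout group lay closer together than in other groups, with a median absolute log2 difference of 0.107 in Cnot6l-/- and 0.109 where labelled Btg4-/-, against 0.302 to 0.847 in the other 10 groups. Cumulus and granulosa cell markers summed to 15.8 and 15.5 FPKM in Cnot6l-/- and 11.2 and 14.2 FPKM where labelled Btg4-/-, against 8.79 and 6.76 FPKM in WT. Summed FPKM of all genes was also higher, on average 301582 in Cnot6l-/- and 377544 where labelled Btg4-/-, against 159243 in WT. The marker sums are thus not shares of the total, and their part was not tested. Without WT MI column 3 no member passed in Cnot6l-/- (Folr4 1.10, adjusted p = 0.051; Cd9 1.07, Zp3 0.69 and Zp1 0.68), and without either Cnot6l-/- MI library only Folr4 did. Where labelled Btg4-/-, Cd9 and Zp3 lost their calls without WT MI column 3 (1.15 and 0.69, adjusted p = 0.12 and 0.18) or Btg4 MI column 3 (1.48 and 1.12, adjusted p = 0.051 each), Cd9 also without Btg4 MI column 2 (1.40, adjusted p = 0.063), and Zp1 passed without WT MI column 2 (1.17, adjusted p = 0.034).

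At MII Cd9 had its largest difference from WT in both knockouts. In Cnot6l-/- eggs 6 of 8 were higher, beside 44.3% of all genes. Cd9 was 31.8 times the WT mean (log2 difference 4.99 ± 0.48 SE, adjusted p = 5.3e-07), and 13 of 10884 genes had a larger difference. The zona genes followed, Zp3 at 8.45 times WT (3.13 ± 0.37 SE, adjusted p = 3.6e-06), Zp2 at 5.93 (2.68 ± 0.48 SE, adjusted p = 0.00022) and Zp1 at 5.13 (2.34 ± 0.38 SE, adjusted p = 9.7e-05). Folr4 was at 5.09 times (2.24 ± 0.36 SE, adjusted p = 7.8e-05) and Plat at 2.52 times WT (1.32 ± 0.41 SE, adjusted p = 0.014). Astl did not pass (0.45, adjusted p = 0.28), nor did Cd81 (0.03, adjusted p = 0.93). The median of all genes was 0.56. After scaling Cd9, the zona genes and Folr4 passed, beside 34.3% of all genes higher, from 1.46 (Folr4) to 4.30 (Cd9), and Plat did not (0.49, adjusted p = 0.43). Leaving out WT MII replicate 1 or 2 gave 5.81 or 4.175 for Cd9 and 3.45 or 1.91 for Zp2, all still passing. The call of Plat was also lost without WT MII replicate 2 (1.10, adjusted p = 0.11) or Cnot6l MII replicate 1 (1.03, adjusted p = 0.14). Cumulus and granulosa cell markers summed to 13.1 and 8.03 FPKM in these Cnot6l-/- eggs, against 5.32 and 5.05 FPKM in WT eggs, mostly from Cyp19a1. Summed FPKM of all genes averaged 190242 in these Cnot6l-/- eggs, against 98985 in WT eggs. The part of these markers in the result was not tested.

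In eggs labelled Btg4-/- at MII, 5 of 8 were higher, beside 28.3% of all genes. Cd9 was 33.1 times WT (5.02 ± 0.48 SE, adjusted p = 1.4e-06), with 15 genes above it. Zp3 was 5.43 times WT (2.50 ± 0.37 SE, adjusted p = 7.5e-05), Zp2 3.90 times (2.06 ± 0.48 SE, adjusted p = 0.0033), Folr4 2.50 times (1.25 ± 0.36 SE, adjusted p = 0.013) and Zp1 2.36 times (1.22 ± 0.38 SE, adjusted p = 0.023). The proteases Plat (0.03, adjusted p = 0.99) and Astl (-0.12, adjusted p = 0.86) overlapped with WT. The median of all genes was 0.38, and after scaling Cd9 (4.43), Zp3 (1.78) and Zp2 (1.34) passed, beside 21.8% of all genes higher. Cd9 was at 5.84 or 4.205 without WT MII replicate 1 or 2, and Zp2 at 2.84 without replicate 1. The calls of Zp2, Folr4 and Zp1 were lost without WT MII replicate 2 (1.29, 1.18 and 0.95, adjusted p = 0.087, 0.082 and 0.19). Without Btg4 MII replicate 1 Zp2 and Zp1 lost theirs (1.57 and 0.94, adjusted p = 0.073 and 0.22), and without Btg4 MII replicate 2 Folr4 did (1.15, adjusted p = 0.066).

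In zygotes Cd9, Zp1, Zp2, Zp3 and Astl passed in both knockouts, Plat in Cnot6l-/- only and Folr4 in neither. In Cnot6l-/- zygotes 6 of 8 were higher than in WT, beside 8.00% of all genes. Cd9 was 11.96 times WT (3.48 ± 0.48 SE, adjusted p = 0.00025) and Plat 9.19 times (3.28 ± 0.41 SE, adjusted p = 7.7e-05), with 16 and 24 of 10884 genes above them. Zp2 (2.44 ± 0.48 SE, adjusted p = 0.0034), Astl (2.01 ± 0.33 SE, adjusted p = 0.001), Zp3 (1.797, adjusted p = 0.0048) and Zp1 (1.73, adjusted p = 0.008) were higher as well. Folr4 (-0.26, adjusted p = 0.83) overlapped with WT, as did Cd81 (0.09, adjusted p = 0.95). All 6 also passed after scaling, beside 8.00% of all genes higher, from 1.18 (Zp3) to 2.95 (Cd9), where the median of all genes was -0.08, against 0.18 as deposited. Plat was at 2.46 or 4.10 without WT Zygote replicate 1 or 2, still passing. Without Cnot6l Zygote replicate 2 the zona genes lost their calls (Zp1 1.48, Zp2 2.21 and Zp3 1.27, adjusted p = 0.12, 0.06 and 0.11), and Zp1 did without WT Zygote replicate 1 (1.17, adjusted p = 0.095). In a fit of only these 4 libraries none of the 6 passed (adjusted p = 0.06 to 0.23), with the share of all genes not given. The cumulus and granulosa cell markers summed to 6.20 and 6.13 FPKM in Cnot6l-/- zygotes, against 1.94 and 1.48 FPKM in WT zygotes. Summed FPKM of all genes averaged 108983 in Cnot6l-/- zygotes, against 62984 in WT zygotes. The part of these markers was not tested.

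In zygotes labelled Btg4-/- 5 of 8 were higher than in WT, beside 21.5% of all genes. Cd9 was 16.4 times WT (3.89 ± 0.48 SE, adjusted p = 2.8e-05) and Zp2 15.4 times (3.69 ± 0.48 SE, adjusted p = 3.7e-05). Zp3 (2.58 ± 0.37 SE, adjusted p = 8.7e-05), Zp1 (2.00 ± 0.38 SE, adjusted p = 0.0011) and Astl (1.57 ± 0.33 SE, adjusted p = 0.0024) followed. Plat lay above WT in both libraries and did not pass (1.03, adjusted p = 0.082); without WT Zygote replicate 2 it did (1.85, adjusted p = 0.0028). Folr4 (0.13, adjusted p = 0.85) and Cd81 (0.13, adjusted p = 0.77) did not pass. After scaling Astl did not pass (0.86, adjusted p = 0.17) and the other 4 did, beside 11.7% of all genes higher. The median of all genes was 0.38, and 0.01 after scaling. In a fit of only these 4 libraries none of the 5 passed (adjusted p = 0.11 to 0.15), with the share of all genes not given. The cumulus and granulosa cell markers summed to 4.97 and 2.44 FPKM in these zygotes, against 1.94 and 1.48 FPKM in WT. Summed FPKM of all genes averaged 146144 in these zygotes, against 62984 in WT. The part of these markers was not tested.

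**Figure D4:**
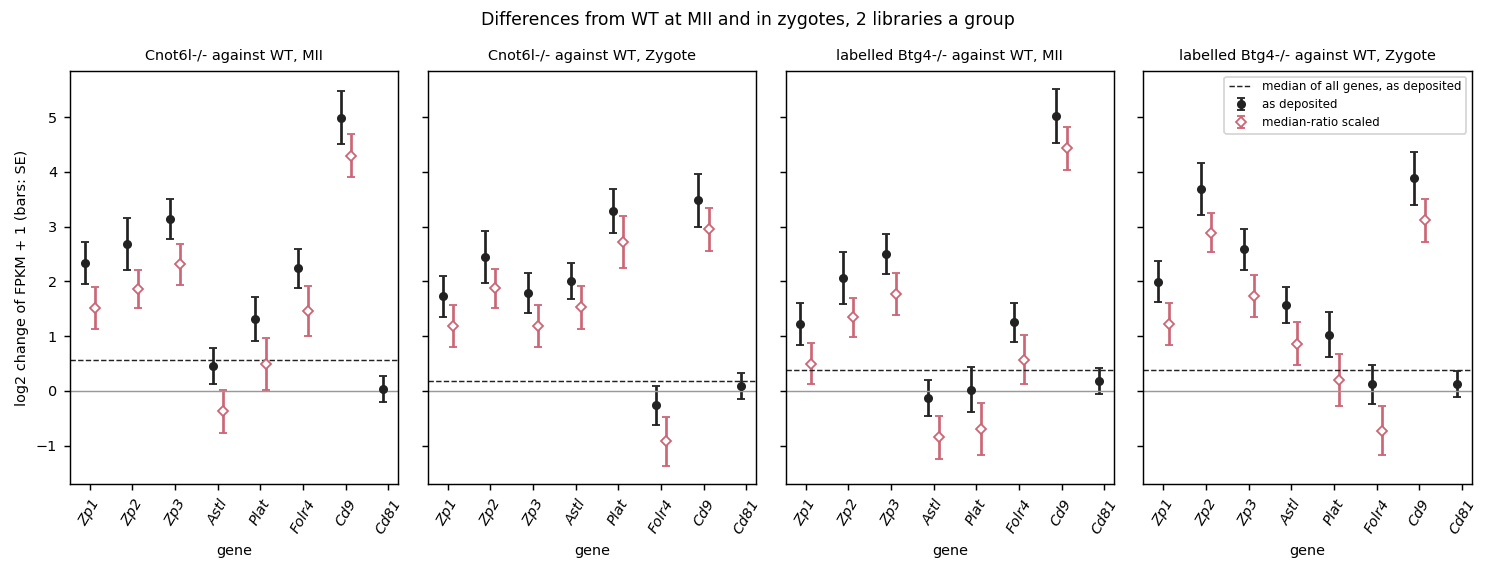
Log2 differences of FPKM + 1 from WT at MII and in zygotes for Cnot6l-/- and for libraries labelled Btg4-/- (points with SE bars), as deposited (filled circles) and after median-ratio scaling (open diamonds). The dashed line is the median of all genes as deposited. Cd9 is highest in both knockouts at MII, at 4.99 and 5.02, and Plat stands at 3.28 in Cnot6l-/- zygotes and 1.03 in zygotes labelled Btg4-/-.

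Whether a step itself differed between genotypes was tested as the knockout change minus the WT change. A positive value means a smaller fall or a larger rise of FPKM in the knockout. From GV to MI, Folr4 was the 1 member that passed, in Cnot6l-/- (1.58 ± 0.51 SE, adjusted p = 0.017, beside 44.4% of all genes higher) and where labelled Btg4-/- (1.97 ± 0.51 SE, adjusted p = 0.0044, beside 45.4%). From GV to MII, 5 passed in Cnot6l-/-, beside 24.1% of all genes: Cd9 (4.59 ± 0.69 SE, adjusted p = 0.00013), Zp3 (3.08 ± 0.52 SE, adjusted p = 0.00037), Zp2 (2.71 ± 0.67 SE, adjusted p = 0.0071), Folr4 (2.53 ± 0.51 SE, adjusted p = 0.0015) and Zp1 (2.32 ± 0.54 SE, adjusted p = 0.0044). Where labelled Btg4-/- 3 passed, beside 13.3%: Cd9 (4.81 ± 0.69 SE, adjusted p = 0.00021), Zp2 (2.47 ± 0.67 SE, adjusted p = 0.02) and Zp3 (2.35 ± 0.52 SE, adjusted p = 0.0055). After scaling Folr4 passed at MI in neither, beside 18.7% of all genes higher in Cnot6l-/- and 18.2% where labelled Btg4-/-. From GV to MII Cd9, Zp3 and Zp2 passed in both, beside 15.0% and 12.4% of all genes higher. Leaving out WT MII replicate 1 or 2 gave, from GV to MII, 5.41 or 3.78 for Cd9 and 3.48 or 1.93 for Zp2 in Cnot6l-/-. Under the Btg4-/- label it gave 5.625 or 3.99 for Cd9, and 3.24 for Zp2 without replicate 1. Folr4 lost its call for GV to MI in Cnot6l-/- without WT GV replicate 2, WT MI column 3 or Cnot6l GV replicate 1 (1.34, 1.39 and 1.40, adjusted p = 0.061, 0.075 and 0.068). Zp3 passed for the same step without WT MI column 2, in Cnot6l-/- (1.52, adjusted p = 0.035) and where labelled Btg4-/- (1.42, adjusted p = 0.046). Zp2 where labelled Btg4-/- lost its call from GV to MII without WT GV replicate 1, WT MII replicate 2, Btg4 GV replicate 1 or Btg4 MII replicate 1 (2.29, 1.70, 2.38 and 1.97, adjusted p = 0.082, 0.13, 0.076 and 0.13).

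From MII to zygote the members split in Cnot6l-/-. Plat (1.97 ± 0.57 SE, adjusted p = 0.024) and Astl (1.55 ± 0.47 SE, adjusted p = 0.029) fell less than in WT, 2 of 8 beside 0.358% of all genes higher, while Folr4, low in WT by MII, fell more (-2.50 ± 0.51 SE, adjusted p = 0.0021), beside 16.0% of all genes lower. The same 3 passed after scaling, beside 2.63% of all genes higher and 22.4% lower. Where labelled Btg4-/- 0 passed in limma, beside 0.101% of all genes passing as higher. At an unadjusted p under 0.05 there were 3, Astl at 1.70 (adjusted p = 0.31), Zp2 at 1.62 (adjusted p = 0.89) and Folr4 at -1.13 (adjusted p = 1). For Plat the difference was put at 1.005 (adjusted p = 1). The calls of Plat and Astl were not stable. Both were lost without WT Zygote replicate 1 (1.15 and 1.22, adjusted p = 0.14 each), without WT MII replicate 1 (1.75 and 1.49, adjusted p = 0.10 and 0.087), without Cnot6l MII replicate 2 (1.68 and 1.42, adjusted p = 0.092 and 0.086) and without Cnot6l Zygote replicate 2 (1.67 and 1.18, adjusted p = 0.089 and 0.12). Astl was also lost without WT MII replicate 2 or Cnot6l MII replicate 1 (1.62 and 1.69, adjusted p = 0.064 and 0.051). Folr4 passed in each of these fits, at -1.90 or -3.10 without Cnot6l Zygote replicate 1 or 2, and Plat was at 2.78 without WT Zygote replicate 2. Without WT MII replicate 1 Cd9 (-2.32, adjusted p = 0.025) and Zp3 (-1.79, adjusted p = 0.039) passed as falling more in Cnot6l-/-, and Zp3 also without Cnot6l Zygote replicate 2 (-1.86, adjusted p = 0.017).

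Cnot6l-/- was also set directly against the libraries labelled Btg4-/-, a test chosen after the values had been seen. At GV 0 of the 7 members other than Cd81 passed in limma, also at an unadjusted p under 0.05, beside 18.3% of all genes in either direction. At MI 0 of these 7 passed in limma, likewise at an unadjusted p under 0.05, beside 10.1%. Cd81 had 0.24 FPKM in both Cnot6l-/- libraries at MI, against 1.07 and 1.56 FPKM where labelled Btg4-/-. At MII 1 of 8 passed, beside 12.8%: Plat was higher in Cnot6l-/- (1.29 ± 0.41 SE, adjusted p = 0.045), and this call was lost in all 4 fits that left out an MII library of these groups (1.01 to 1.58, adjusted p = 0.057 to 0.32) and after scaling (1.19, adjusted p = 0.1). In zygotes 1 passed, beside 14.5%: Plat averaged 105 ± 30.7 FPKM in Cnot6l-/- and 20.9 ± 0.24 FPKM where labelled Btg4-/- (SD, n = 2; 2.25 ± 0.41 SE, adjusted p = 0.0012), 5.05 times as much, and it passed after scaling (2.51, adjusted p = 0.0012). Zp2 went the other way in zygotes without passing (-1.25, adjusted p = 0.096), and passed after scaling (-1.02, adjusted p = 0.045) and without Btg4 Zygote replicate 2 (-1.76, adjusted p = 0.044). Zp3 passed without Cnot6l Zygote replicate 2 (-1.31, adjusted p = 0.034). Cd9 did not differ beyond the spread at MII (-0.03 ± 0.48 SE, adjusted p = 0.99) or in zygotes (-0.41 ± 0.48 SE, adjusted p = 0.72).

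Genes that act with the members were counted from lists. Of 18 egg membrane partners, tetraspanins and integrins among them, 11 were tested, and 4 were higher in Cnot6l-/- than in WT at MII (median log2 difference 0.51, against 0.56 over all genes, of which 44.3% were higher) and 3 where labelled Btg4-/- (median 0.28, against 0.38, with 28.3% higher). Tspan3, another tetraspanin, averaged 51.2 FPKM at WT GV and was higher at MII in Cnot6l-/- (3.03, adjusted p = 4.1e-05) and where labelled Btg4-/- (1.83, adjusted p = 0.0053), at 35.7 and 15.3 FPKM against 3.35 FPKM in WT. Cd55, a complement regulator and the most abundant of the list at WT GV with 78.3 FPKM, did not pass in either (0.32 and 0.27, adjusted p = 0.65 and 0.78). In zygotes 2 partners were higher in Cnot6l-/-, beside 8.00% of all genes, and 0 passed in limma where labelled Btg4-/-, with 2 at an unadjusted p under 0.05, beside 21.5% of all genes higher.

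Of 18 genes of cortical granules and their exocytosis, the route by which ovastacin is released, 14 were tested and all 14 fell by MII in WT (median -2.31, against -1.37 over all genes, of which 83.4% fell). At MII 10 were higher in Cnot6l-/- than in WT (median 1.04), beside 44.3% of all genes, and 6 where labelled Btg4-/- (median 0.60), beside 28.3%. Uchl1, an abundant ubiquitin hydrolase, was higher in both (2.36 and 2.33, adjusted p = 0.001 and 0.0019; not after scaling, adjusted p = 0.059 and 0.067), as was Calr, a chaperone and cortical granule protein (2.09 and 1.62, adjusted p = 1.2e-05 and 0.00027). In zygotes 0 passed in limma in Cnot6l-/-, with 1 at an unadjusted p under 0.05, beside 8.00% of all genes higher, and 4 were higher where labelled Btg4-/-, beside 21.5%. After scaling 8 were higher at MII in Cnot6l-/- (34.3% of all genes) and 4 where labelled Btg4-/- (21.8%), and in zygotes 4 were lower in Cnot6l-/- (7.91%).

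Of 11 genes of the plasminogen system, in which Plat acts, 10 were in the table and 5 were tested. At MII 1 was higher in Cnot6l-/- than in WT, Anxa2 (0.84, adjusted p = 0.0071; 0.33, adjusted p = 0.21 after scaling), a binding site for plasminogen, and 0 passed in limma where labelled Btg4-/-, with 1 at an unadjusted p under 0.05, beside 44.3% and 28.3% of all genes higher. Serpine2, an inhibitor of Plat and the most abundant of the list with 129 FPKM at WT GV, did not pass in Cnot6l-/- zygotes (0.92, adjusted p = 0.051) or in zygotes labelled Btg4-/- (0.35, adjusted p = 0.42; after scaling lower, -0.53, adjusted p = 0.049). Of 14 genes of zona regulation and secreted oocyte proteins 11 were tested, with 2 higher at MII in each knockout, beside the same shares of all genes. Oosp1, a secreted oocyte protein, and Gdf9, a growth factor, led this list at WT GV with 2330 and 1956 FPKM. At MII the differences did not pass in Cnot6l-/- (Oosp1 -0.14, Gdf9 0.70, adjusted p = 0.81 and 0.087) or where labelled Btg4-/- (-0.09 and 0.16, adjusted p = 0.93 and 0.79); after scaling Oosp1 was lower in both (-0.97 and -0.81, adjusted p = 0.012 and 0.042). Figla, named after its values were seen, encodes the transcription factor that activates the zona genes through E-boxes. It was higher at MII in Cnot6l-/- (3.80, adjusted p = 5.9e-08) and where labelled Btg4-/- (4.003, adjusted p = 1.2e-07). RefSeq promoters (GRCm38.p6) were matched for Zp3, Astl, Folr4, Cd9 and Cd81. None was matched for Zp1, Zp2 or Plat. In the 250 bases before the start, Zp3 held 3 E-boxes (CANNTG, both strands), at 181, 134 and 55 bases. At least 1 was held by 66.2% of 32851 promoters, and the share with 3 or more was not counted. Binding of FIGLA was not tested. Astl had 2 promoters matched, with 3 E-boxes in 1 and 0 in the other, and Cd9 held 3, Folr4 1 and Cd81 1.

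The genes whose course over the 12 group means was most like that of the 3 zona genes were Ergic3 (Pearson r = 0.995), Aaas (0.991), Cst3 (0.985), Hsp90b1 (0.984) and Nlrp14 (0.982), among 4821 genes compared. Those most like Astl were Lbr (0.993), Blvra (0.986), Gdpd1 (0.985), Mfsd10 (0.983) and Becn1 (0.983). Within the members Astl had r of 0.962 with Zp1, 0.958 with Plat, 0.931 with Zp2 and 0.925 with Zp3. Cd9 had r of 0.607 with Astl to 0.824 with Zp2 among the members other than Cd81. These r describe 12 groups that share stages and libraries and carry no test.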

How the data were processed

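The 24 RNA-seq libraries were made by a Smart-Seq2 protocol from isolated total RNA, per the labels' protocols. FPKM values per gene were deposited by the authors in one table of all libraries; per the submitters' processing notes CASAVA 1.8, TopHat2 2.0.11, Bowtie2 2.1.0, Cufflinks 2.2.1 and mm9 were used. How libraries were scaled to each other, and their depth, are not given in the sources used here, so no counting interval is given. Tables of single libraries were not used. The deposited values were put on a log2(FPKM + 1) scale and fitted with limma 3.58.1 (R 4.3.3; lmFit, eBayes with trend) as 12 group means, with 12 residual degrees of freedom. Tests covered the 10884 genes that reached a mean of 1 FPKM in some group, with Benjamini-Hochberg adjustment over all of them and a threshold of 0.05. The procedure was tested on simulated data.

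Other settings tried were 0.1 as pseudocount, all genes unfiltered, median-ratio scaling, only the compared libraries, a replicate block, each library left out and, added after the values were seen, no MI libraries. The direct comparison of both knockouts was also added then. The members and lists were chosen with earlier results of these data known. All members, the 5 genes most like the zona genes and like Astl over the group means, the 2 most abundant genes of each list at WT GV, and Cnot6l and Btg4 were named; others are marked as chosen later. Columns of MI libraries were assigned to groups only. 3′ ends were read from gencode vM1 on mm9. Sequences were handled in Python 3.11.15.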

Additional observations from a re-analysis of the deposited data

Results flagged for a closer look

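The steps below differed between a knockout and WT by limma's test of the difference itself (knockout change minus WT change on the log2(FPKM + 1) scale, adjusted over all genes tested). In Cnot6l-/- from GV to MI this was Folr4, at 1.583 (adjusted p = 0.017), beside 44.4% of all genes passing as higher. From GV to MII these were Cd9 at 4.595 (adjusted p = 0.00013), Zp3 at 3.084 (adjusted p = 0.00037), Zp2 at 2.705 (adjusted p = 0.0071), Folr4 at 2.528 (adjusted p = 0.0015) and Zp1 at 2.324 (adjusted p = 0.0044). Beside them 24.1% of all genes passed as higher. From MII to zygote these were Plat at 1.966 (adjusted p = 0.024), Astl at 1.554 (adjusted p = 0.029) and Folr4 at -2.499 (adjusted p = 0.0021). Of all genes 0.358% passed as higher and 16.0% as lower for this step. The calls of Plat and Astl were not stable when single libraries were left out.

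In libraries labelled Btg4-/- Folr4 differed from GV to MI, at 1.971 (adjusted p = 0.0044), beside 45.4% of all genes passing as higher. After scaling Folr4 passed for this step in neither knockout. From GV to MII Cd9 differed at 4.81 (adjusted p = 0.00021), Zp2 at 2.469 (adjusted p = 0.02) and Zp3 at 2.352 (adjusted p = 0.0055), beside 13.3% of all genes passing as higher. Both sets of differences use the same WT libraries. With 2 libraries a group, no single library was tested as standing apart.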

How the results depend on the processing

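A pseudocount of 0.1 changed no count of members passing by over 1.5 times. With no filter the count for Cnot6l-/- against Btg4-/- labelled eggs at MII was 0. After median-ratio scaling the counts were 2 (WT MI over GV, both higher), 5 (WT MII over GV), 0 (Cnot6l-/- MII over GV), 1 (labelled Btg4-/- MII over GV), 1 each at MI for Cnot6l-/- and labelled Btg4-/- over WT (Astl, lower), and 3 for labelled Btg4-/- over WT at MII. For the differences in steps they were 0 (GV to MI, each knockout) and 3 (GV to MII, Cnot6l-/-), and between knockouts 0 at MI, where Cd81, the 1 gene counted before, was not tested, 0 at MII and 2 in zygotes. Apart from the counts between knockouts, the shares of all genes after scaling stand with these comparisons in the Results. Of 189 single values 35 changed sign after scaling, and 31 of these passed in neither fit. The 4 that passed in one fit were Astl (0.49) and Plat (0.72) in WT MII over GV, Astl (0.16) in Cnot6l-/- MII over GV, and Zp3 (-0.091) in labelled Btg4-/- over WT at MI. With only the compared libraries, with 2 residual degrees of freedom, counts were 0 (WT zygote over MII, labelled Btg4-/- zygote over MII, either knockout over WT in zygotes, and between knockouts at MII) and 3 (Cnot6l-/- MI over GV, labelled Btg4-/- over WT at MII, and between knockouts at MI). Without the 6 MI libraries, added after the values were seen, the count was 1 (Cnot6l-/- minus WT, MII to zygote) and 0 (between knockouts at MII). Shares of all genes are not given for the fits of only the compared libraries or without the MI libraries. The cause of these changes was not tested.

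Counts in this section include Cd81, also in comparisons that use GV or MI libraries labelled Btg4-/-. Cd81 entered the test only through those groups, so counts in such comparisons are description only. Leaving out each library in turn moved the counts of WT MI over GV and of labelled Btg4-/- zygote over MII. Against WT it moved those of labelled Btg4-/- at GV, MI and MII, and of Cnot6l-/- at MI and in zygotes. The counts between knockouts moved at every stage. Those of the differences in steps moved from GV to MI in both knockouts and from MII to zygote in Cnot6l-/-. Each such fit left 1 library in a group. Shares of all genes are not given for these fits, so their counts are not printed. With a replicate block no count changed by over 1.5 times. No label ties the numbers to a shared source, and a pair of numbers per comparison is too few to take them as pairing, with correlations of deviations from 0.276 to 0.706 over 28 pairs of groups outside MI without Btg4 GV, from -0.307 to 0.00013 over 8 pairs with it, and from -0.086 to 0.0103 over 3 MI pairs. Under the block Folr4 passed in labelled Btg4-/- zygote over MII (-1.48, adjusted p = 0.03), GV to MII against WT (1.34, adjusted p = 0.045) and between knockouts at MII (0.99, adjusted p = 0.044), Zp1 in labelled Btg4-/- over WT at MI (0.80, adjusted p = 0.024), and Plat did not pass between knockouts at MII (adjusted p = 0.076). The block was not run for MI over GV, since the MI columns are tied to groups only. Depth is unknown, and the precision is limited by 2 libraries a group.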
